A study of Bos taurus with 15 samples.

Results

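B cells were followed across the digestive tissues of newborn (NB) and adult (AD) Holstein cattle, leaving out the NB ileum. A barcode was taken as a B cell if it held 500 to 4000 genes, under 50000 unique molecular identifiers (UMIs), at least 1 UMI each of *MS4A1* (CD20) and *CD79A* (a signalling chain of the B cell receptor), and 0 UMIs of *CD3E*, a T cell receptor subunit. This rule found 3014 cells among 124795 barcodes inside the gene and UMI limits in 14 of the 15 libraries. AD libraries held 1569 of them and NB libraries held 1445. The AD duodenum, jejunum, cecum, and colon came from a single lactating cow, whereas the NB tissues came from 3 calves, and the calf behind each library is not given in the sources used here. Ages beyond newborn and adult are not given there either, and the labels name no treatment. Every tissue and stage was 1 single-cell RNA library counted from the 3' end. The AD duodenum and cecum were dissociated with a lamina propria kit and the AD jejunum and colon with a multi tissue kit, whereas the NB gut was treated with EDTA and trypsin before the lamina propria kit. The NB liver and the NB salivary gland, which was the parotid gland, had enzyme mixtures of their own. Stage, animal, and dissociation therefore cannot be told apart, no test between stages was possible, and all intervals below are 95% intervals that cover counting error only. The NB liver and NB salivary gland have no AD library of the same tissue, so comparisons of stages that use them also compare tissues.

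B cells recognise antigen through surface immunoglobulin, which signals through CD79A and CD79B. In a germinal centre, B cells that have met antigen divide quickly and mutate their immunoglobulin genes, and some leave it as plasma cells, which secrete antibody that JCHAIN joins into the polymers carried across mucosal surfaces. B cells that have not yet met antigen circulate through lymphoid tissue with the help of CCR7, and gut-homing lymphocytes of the small intestine carry CCR9. In calves, the ileal Peyer's patch is known as a site where B cells multiply before birth and in early life, and other gut segments hold smaller lymphoid follicles.

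Of the 14 libraries, 8 held 20 or more B cells and were compared. In AD cattle, there were 647 B cells in the duodenum, 279 in the jejunum, 439 in the cecum, and 204 in the colon. In NB cattle, there were 892 in the colon, 440 in the salivary gland, 53 in the liver, and 39 in the cecum. The rectum held 18, the abomasum, duodenum, and jejunum held 1 each, and the reticulum and omasum held 0. The median B cell carried 4628 to 6354 UMIs in the AD libraries, 5509 in the NB colon, and 4392.5 in the NB salivary gland. The B cells of the NB liver and the NB cecum were richer, with medians of 9335 and 16227 UMIs against 4793.5 and 7846 over all barcodes inside the limits of the same libraries. The rule asked for only 1 UMI of each marker, and 28 of the 39 cells of the NB cecum and 40 of the 53 of the NB liver had no more than that of at least 1 of them, against 272 of 892 in the NB colon. Just outside the upper gene limit, 130 barcodes of the NB colon met the marker conditions with over 4000 genes, against 12 or fewer in each other library compared. Only 4 of the 3014 cells (0.133%) shared their barcode with a B cell of another of these libraries, and 144 (4.78%) had a barcode found in any other library.

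The label held in 6 of the 8 libraries and was uncertain in the NB cecum and NB liver. Each cell was thinned to 1000 UMIs, and the cells with UMIs of 2 or more of 11 further B cell genes (such as *CD79B*, *PAX5*, *EBF1*, *BLK*, *CD22*, *SPIB*, *FCRLA*, *VPREB3*, and *CR2*) were counted. Their share was 68.7% in the AD duodenum, 36.6% in the AD jejunum, 71.3% in the AD cecum, 61.8% in the AD colon, 62.9% in the NB colon, and 44.1% in the NB salivary gland. It was 12.8% (4.30 to 27.4) in the NB cecum and 15.4% (6.88 to 28.1) in the NB liver, below all the others. In *CD3E* barcodes without the 2 markers of the rule, it was 0.145% in the NB cecum and 0.0579% in the NB liver. With all UMIs, the share was 51.3% (34.8 to 67.6) in the NB cecum and 61.5% (47.0 to 74.7) in the NB liver. The other 6 libraries then had 93.55% to 98.41%. *VPREB3*, a B lineage chaperone of the receptor, reached 221 to 2160 CPM (the gene's share of all UMIs summed over the B cells of a library, scaled to 1e6 UMIs) in those 6 libraries, against 16.7 CPM in the NB cecum and 17.9 CPM in the NB liver. *FCRLA*, an Fc receptor-like gene of B cells, was at 1.67 and 9.95 CPM in the latter. Macrophage RNA was found among the liver cells, with 1030 CPM of *C1QA*, a complement subunit, and 549 CPM of *MARCO*, a scavenger receptor that was at 0 in 6 of the other 7 libraries. Of the 52 thinned cells, 2 had 2 or more myeloid genes, and 13 of 52 did with all UMIs. The 10 genes of the myeloid list summed to 3730 CPM in these cells and to 5260 CPM in the *CD3E* barcodes of the NB liver. The cells from the NB cecum and the NB liver are therefore called by the rule alone, and results that rest on them are also given without them, which was decided after their values had been seen. Without them, the NB side is the colon and the salivary gland, of which only the colon has an AD library. The AD jejunum stood apart to a lesser degree, with 637 CPM of *C1QA* against 34.0 to 151 CPM in the other AD libraries.

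**Figure D1:**
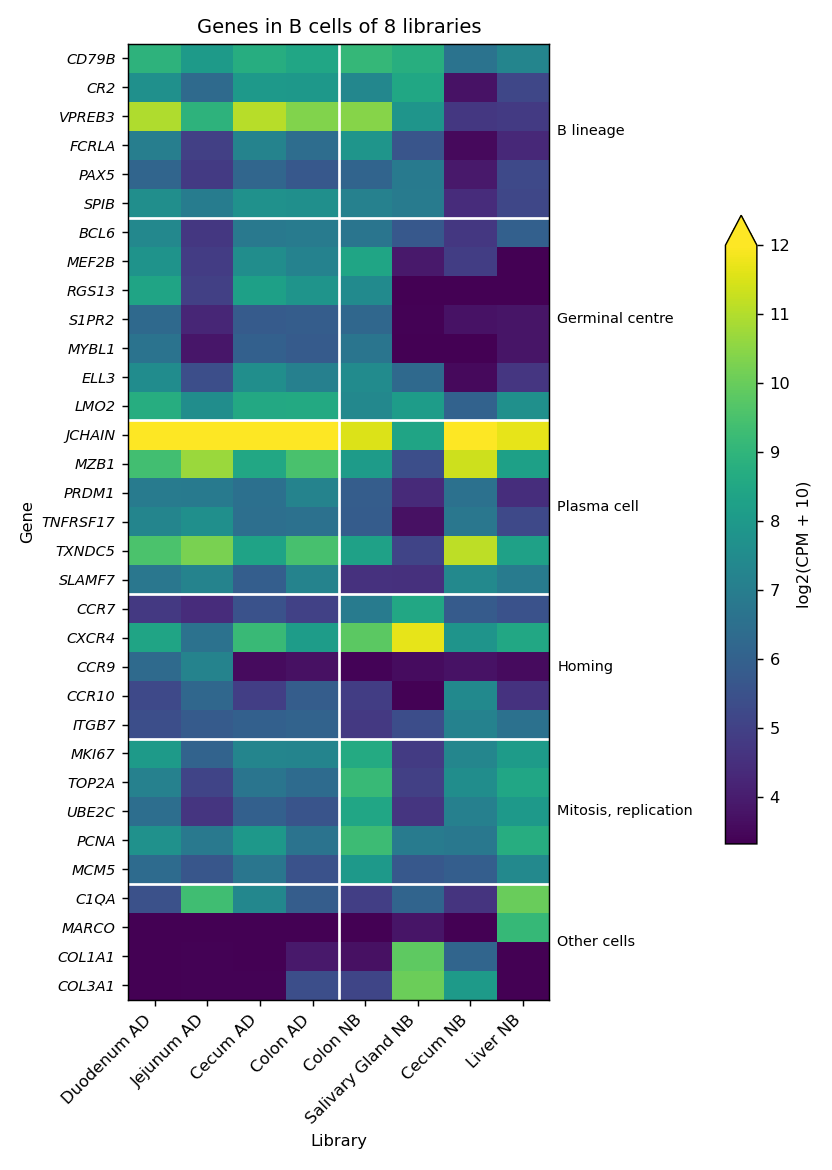
The color gives log2(CPM + 10) of genes (rows) in the summed B cells of 8 libraries (columns, AD to the left of the white line and NB to the right), grouped by role, and values above 12 have the last color. The lineage genes are dark in the NB cecum and NB liver, and the mitosis genes are brightest in the NB colon. Most germinal centre genes are darker in the NB salivary gland than in the NB colon, but *LMO2* is brighter there.

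B cells made up a larger share of the leukocytes in the NB colon and NB salivary gland than in any AD library. Among barcodes with a UMI of *PTPRC* (CD45, carried by leukocytes), their share was 29.8% (27.7 to 32.0) in the NB colon and 14.5% (13.05 to 16.05) in the NB salivary gland. The AD shares were 5.84% in the duodenum, 2.31% in the jejunum, 3.92% in the cecum, and 2.01% in the colon, with intervals of 1.71% to 6.38% in all. The share was 1.08% in the NB cecum, 0.512% in the NB rectum, 0.349% in the NB liver, 0.225% in the NB abomasum, and 0.107% in the NB duodenum. In the NB jejunum, 0 of 2801 *PTPRC* barcodes were B cells, which allows a share of up to 0.132% by the interval (0.107% by the limit of 3 counts), and the reticulum and omasum had too few *PTPRC* barcodes (14 and 11) for a share. The median share was 3.11% over 4 AD libraries and 0.287% over 10 NB libraries, or 0.431% over the 8 with 100 or more *PTPRC* barcodes, so the order of the stages by the median was opposite to the order of the colon. These medians cover different tissues, and that over 10 libraries counts the reticulum and omasum as 0. Within the tissues present at both stages, the AD share was higher in the duodenum, jejunum, and cecum and lower in the colon. Both B cell markers were also found in barcodes that should lack them. Among *CD3E* barcodes, 4.96% had both in the NB colon, 7.98% in the NB salivary gland, and 0.630% to 1.92% in the AD libraries. Thinning every barcode to 1000 UMIs before the marker rule lowered the share to 7.69% (5.71 to 10.1) in the NB colon and 4.66% (3.45 to 6.15) in the NB salivary gland, and to 0.598% to 1.81% in the AD libraries. The interval of the unthinned B cell share lay above that of the *CD3E* barcodes in all 6 libraries. The share was higher in stroma of the salivary gland, where 20 of 119 barcodes with *COL1A2* and without *PTPRC* had both markers (16.8%, 10.6 to 24.8), and in the AD duodenum, where 8 of 61 barcodes with *EPCAM* and without *PTPRC* did (13.1%, 5.84 to 24.2). How many of the B cells of these libraries are joined cells or free RNA was not tested. In the NB liver, by contrast, the 2 shares were 0.349% (0.241 to 0.490) and 0.295% (0.165 to 0.486), and the intervals also overlapped in the NB cecum.

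**Figure D2:**
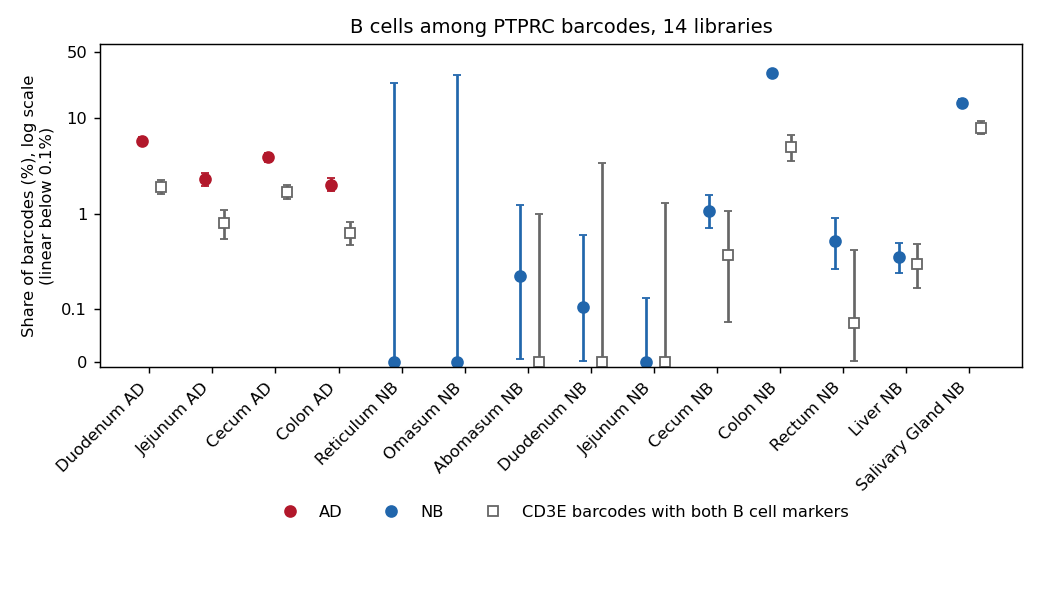
Filled circles give the share of B cells among *PTPRC* barcodes in 14 libraries and open squares the share of *CD3E* barcodes with both B cell markers (libraries with 100 or more such barcodes), both in percent on a log scale that is linear below 0.1%, with exact binomial intervals. The NB colon (29.8%) and NB salivary gland (14.5%) lie above the 4 AD libraries (2.01% to 5.84%), and the NB liver lies at its square.

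Of the signalling chains of the receptor, *CD79B*, which the rule did not use, overlapped between stages where the label held. *CD79A*, which the rule itself required, was at 518, 349, 576, and 498 CPM in the AD duodenum, jejunum, cecum, and colon. It was at 661 and 781 CPM in the NB colon and salivary gland, above every AD library but short of 2-fold. *MS4A1*, the other marker of the rule, had the opposite order, at 1570, 927, 1320, and 1210 CPM in AD and at 673 and 754 CPM in these 2 NB libraries. Because both genes were used to choose the cells, their levels cannot show a difference between stages. *CD79B*, the partner of CD79A, was at 479, 257, 410, and 343 CPM in the AD duodenum, jejunum, cecum, and colon and at 543 and 420 CPM in the NB colon and salivary gland. The stages overlapped for *CD79B*. Of the 20 genes of the list of receptor, coreceptors, and proximal signalling, 0 were separated between stages, in which every library of one stage lay at least 2-fold above every library of the other on CPM + 10. Over all 4829 genes tested, 5 were separated upward in AD (0.104%) and 12 in NB (0.248%), or 27 (0.561%) and 22 (0.457%) of 4809 genes without the NB cecum and NB liver. With shares this low, 0 of 20 does not set the list apart from other genes. The median log2 ratio of AD over NB on the list was 0.28 with all 8 libraries and -0.14 without these 2, against -0.03 over all genes in both. *CD22*, an inhibitory coreceptor, was at 246, 97.6, 218, and 199 CPM in AD and at 90.1 and 117 CPM in the NB colon and salivary gland. Among the 16 B lineage transcription factors, *PAX5*, which keeps B cell identity, was at 61.7, 17.5, 63.2, and 41.9 CPM in AD and at 59.3 and 107 CPM in these 2 NB libraries, and the stages overlapped.

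*IRF8*, a transcription factor of B cells and of macrophages, separated the stages once the NB cecum and NB liver were left out. It was the only 1 of 13 tested factors of that list to do so, against 0.561% of all 4809 genes upward in AD. It was at 89.7, 91.0, 96.1, and 102 CPM in the AD duodenum, jejunum, cecum, and colon and at 9.13 and 31.9 CPM in the NB colon and salivary gland. The AD libraries lay close together and the lowest was 2.38 times the highest of the 2 NB libraries on CPM + 10. In the NB cecum and liver it was at 112 and 35.8 CPM, so the stages overlapped with all 8 libraries. The 3 myeloid genes tested in the same 6 libraries (*C1QA*, *C1QB*, and *C1QC*) had log2 ratios of AD over NB above 0, with a median of 1.77, although none separated the stages. The myeloid list summed to 85.2, 1360, 287, and 115 CPM in the AD duodenum, jejunum, cecum, and colon and to 167 and 193 CPM in the NB colon and salivary gland, and thus overlapped. Its part in the *IRF8* levels was not tested. *FOXP1*, a factor of resting B cells, had the opposite order, at 37.2, 17.5, 46.1, and 47.2 CPM in AD and at 66.0 and 124 CPM in the NB colon and salivary gland, but it did not reach the 2-fold separation.

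The germinal centre list summed to 1250 to 1700 CPM in the AD duodenum, cecum, and colon and the NB colon. It summed to less in the AD jejunum (345 CPM) and NB salivary gland (582 CPM). *RGS13*, a regulator of chemokine signalling in germinal centre cells, was at 328, 21.4, 293, and 213 CPM in the AD duodenum, jejunum, cecum, and colon. It was at 169 CPM in the NB colon, and no UMI of it was found in the NB salivary gland, cecum, or liver. *MEF2B*, a transcription factor upstream of *BCL6*, was at 212, 19.2, 182, and 133 CPM in AD, and at 334 CPM in the NB colon against 5.24 CPM in the salivary gland. The NB colon lay above every AD library for this gene. *BCL6*, the master regulator of the germinal centre, was at 157, 16.6, 103, and 113 CPM in AD and at 94.5 and 42.8 CPM in the NB colon and salivary gland. *S1PR2*, a receptor that confines cells to the germinal centre, was at 67.9, 9.19, 46.5, and 48.7 CPM in AD, at 64.8 CPM in the NB colon, and at 0.437 CPM (1 UMI) in the NB salivary gland. *CD38* and *LMO2* of the list were higher in the NB salivary gland than in the NB colon, with log2 ratios of colon over salivary gland of -1.89 and -0.76. Of the 14 genes of the list that were found, 10 were tested and 0 separated the stages. Over all 4829 genes, 0.104% were separated upward in AD and 0.248% in NB, so a count of 0 does not set the list apart. The median log2 ratio of the list was 0.91 with 8 libraries and 0.32 without the NB cecum and NB liver. Per cell, thinned to 1000 UMIs, UMIs of 2 or more germinal centre genes were seen in 34.3% (30.6 to 38.1), 5.38% (3.04 to 8.71), 27.6% (23.4 to 32.0), and 23.5% (17.9 to 30.0) of B cells in the AD duodenum, jejunum, cecum, and colon. The shares were 27.9% (25.0 to 31.0) in the NB colon and 11.6% (8.75 to 14.96) in the NB salivary gland. In *CD3E* barcodes without the B cell markers, the same count was 0% to 1.70% over the 8 libraries. With all UMIs of the B cells, the shares were 62.8%, 33.7%, 67.0%, and 54.9% in the AD duodenum, jejunum, cecum, and colon. They were 73.9% in the NB colon and 63.4% (58.7 to 67.9) in the NB salivary gland, which then lay within the AD range.

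Dividing B cells were frequent in the NB colon and rare in the NB salivary gland, and in the AD jejunum they were rare only after thinning. A cell was counted as mitotic if it had UMIs of 2 or more of 12 mitosis genes at 1000 UMIs. In the NB colon, 239 of 892 B cells were mitotic (26.8%, 23.9 to 29.8), against 6 of 440 in the NB salivary gland (1.36%, 0.502 to 2.94). In AD, the share was 8.37% (6.35 to 10.8) in the duodenum, 1.08% (0.222 to 3.11) in the jejunum, 5.70% (3.72 to 8.29) in the cecum, and 3.92% (1.71 to 7.58) in the colon. The interval of the NB colon lay above all 4 AD intervals, and that of the NB salivary gland lay below those of the AD duodenum and cecum. Without thinning, the AD shares were 13.8% in the duodenum, 10.0% (6.77 to 14.2) in the jejunum, 11.4% in the cecum, and 7.84% in the colon. The AD jejunum was then among the other AD libraries. The unthinned shares were 37.9% in the NB colon and 3.18% in the NB salivary gland. Pooled over libraries, 5.74% of the AD cells and 18.3% of the NB cells were mitotic, or 11.7% and 26.8% without thinning, and 239 of the 260 mitotic NB cells came from the colon. The NB liver and NB cecum gave 21.2% (11.1 to 34.7) and 10.3% (2.87 to 24.2) of 52 and 39 cells. Without barcodes holding RNA of 7 markers of other cells, 1 of 24 cells of the NB liver and 0 of 17 of the NB cecum were mitotic, and with 2 UMIs of each B cell marker 1 of 13 and 2 of 11. Among *CD3E* barcodes of the same libraries, 0.348% were mitotic in the AD duodenum, 6.89% in the AD jejunum, 0.835% in the AD cecum, and 1.70% (1.42 to 2.02) in the AD colon. In NB, 6.50% were mitotic in the colon, 2.43% in the salivary gland, 14.3% in the cecum, and 1.68% in the liver. The interval of the B cells lay above that of the *CD3E* barcodes in the AD duodenum, AD cecum, NB colon, and NB liver, and below it in the AD jejunum. The intervals overlapped in the AD colon, NB salivary gland, and NB cecum.

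In the NB colon and the AD duodenum, cecum, and colon, the mitotic share was higher among cells with germinal centre genes. In the NB colon, 125 of 249 cells with 2 or more germinal centre genes were mitotic (50.2%, 43.8 to 56.6), against 114 of 643 other cells (17.7%, 14.9 to 20.9). In the AD duodenum, the shares were 17.2% (12.5 to 22.8) and 3.77% (2.17 to 6.06), in the AD cecum 14.1% (8.40 to 21.5) and 2.52% (1.09 to 4.90), and in the AD colon 14.6% (6.07 to 27.8) and 0.641% (0.0162 to 3.52). In these 4 libraries, the intervals of the 2 kinds of cells did not overlap. The other 4 did not show this difference beyond counting error. In the AD jejunum, 0 of 15 cells with germinal centre genes and 3 of 264 others were mitotic, and in the NB salivary gland 2 of 51 and 4 of 389. In the NB liver, 0 of 4 and 11 of 48 were mitotic, and the NB cecum had no cell with 2 or more germinal centre genes. The NB colon exceeded the 3 AD libraries within both kinds of cells, and these cells come from the same libraries and are not replicates.

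Gene by gene, *TOP2A*, a topoisomerase of dividing cells, was at 132, 24.5, 93.4, and 72.6 CPM in the AD duodenum, jejunum, cecum, and colon and at 567 and 21.0 CPM in the NB colon and salivary gland. *PCNA*, the sliding clamp of DNA replication, was at 201, 103, 238, and 89.9 CPM in AD and at 615 and 112 CPM in the NB colon and salivary gland. The NB colon was highest and the NB salivary gland lay among or below the AD libraries for both genes. None of the 11 tested mitosis genes and 12 tested DNA replication genes separated the stages, although all had a log2 ratio below 0. Their medians were -1.12 and -0.77 with 8 libraries and -1.21 and -0.87 without the NB cecum and NB liver, against -0.03 over all genes. Of all 4829 genes, 0.104% were separated upward in AD and 0.248% in NB, so counts of 0 do not set these lists apart.

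**Figure D3:**
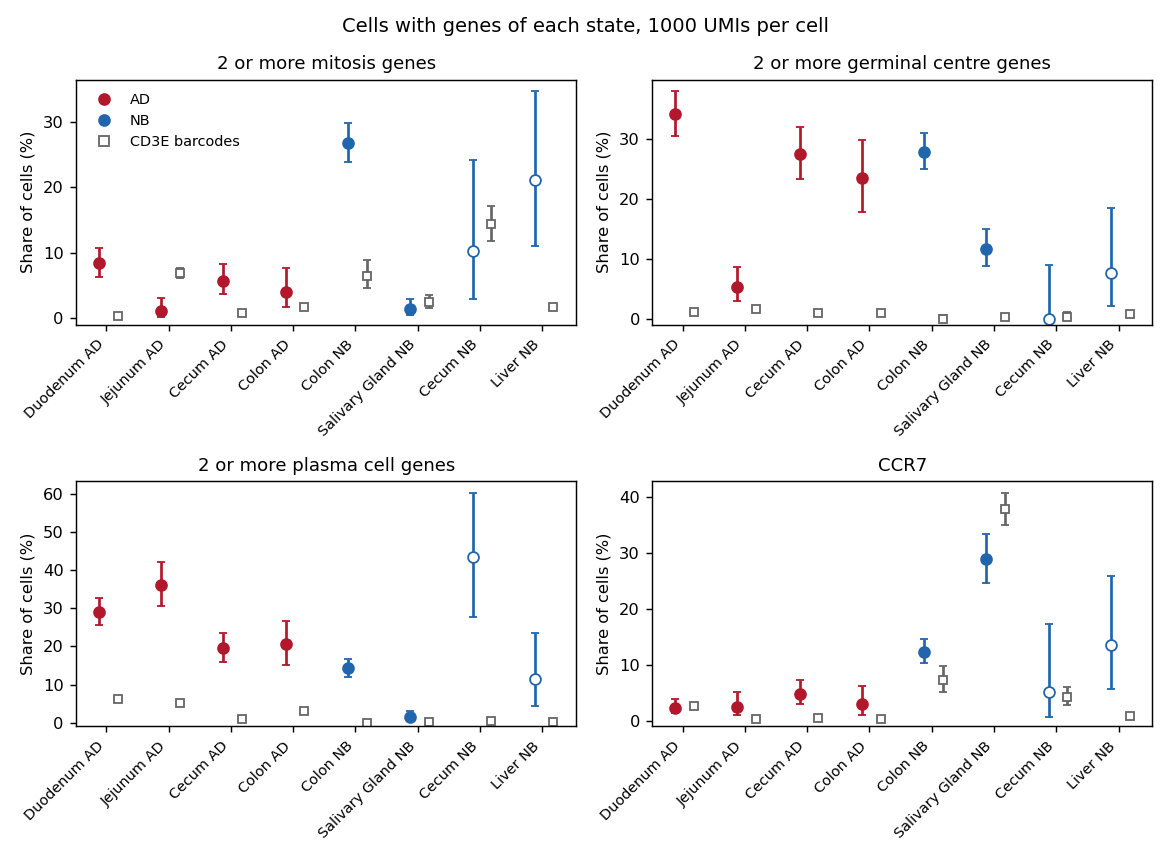
Each panel gives the share of cells (percent, linear scale) with UMIs of the named genes after thinning to 1000 UMIs, for B cells (circles, AD red and NB blue, open for the NB cecum and NB liver) and *CD3E* barcodes without B cell markers (gray squares), with exact binomial intervals. The NB colon leads in mitosis genes (26.8%), 4 libraries have 23.5% to 34.3% of B cells with germinal centre genes, and the NB salivary gland leads in *CCR7* (28.9%).

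*JCHAIN*, which joins secreted antibodies, and *SLAMF7*, 2 of the 13 tested genes of the plasma cell list, were at least 2-fold higher in the B cells of every AD library than in those of the NB colon and salivary gland. *JCHAIN* was at 34500, 50800, 13800, and 26200 CPM in the AD duodenum, jejunum, cecum, and colon and at 3000 and 326 CPM in the NB colon and salivary gland. The lowest AD library was 4.6 times the highest of these 2 NB libraries on CPM + 10. The 39 cells of the NB cecum had 20800 CPM, within the AD range, so the separation is lost with them (a ratio of 0.667). *JCHAIN* RNA was not confined to B cells. In *CD3E* barcodes it was at 5400, 2630, 1040, and 1010 CPM in AD, and at 25.5 and 4.93 CPM in the NB colon and salivary gland, and these barcodes separated the stages too. After thinning, 65.4%, 64.9%, 43.5%, and 45.1% of AD B cells had a *JCHAIN* UMI against 47.5%, 40.0%, 9.93%, and 19.9% of *CD3E* barcodes (median 3579 to 4061 UMIs per barcode). In the NB colon, 37.6% of B cells had one, against 2.89% of *CD3E* barcodes, and in the NB salivary gland 10.5% against 0.629%. The part that free RNA has in the AD levels was not tested.

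*SLAMF7*, a surface receptor of plasma cells, was at 99.4, 138, 50.7, and 138 CPM in the AD duodenum, jejunum, cecum, and colon and at 13.5 and 13.1 CPM in the NB colon and salivary gland. It also separated these libraries, but *CD3E* barcodes had 58.0 to 110 CPM in AD and 6.68 and 8.12 CPM in the 2 NB libraries. *PRDM1*, which drives plasma cell differentiation, was at 112, 107, 82.5, and 137 CPM in AD and at 49.4 and 10.5 CPM in these 2 NB libraries, without overlap but short of the 2-fold rule. *TNFRSF17* (BCMA, a survival receptor of plasma cells) was at 144, 192, 79.4, and 83.9 CPM in AD and at 48.2 and 3.06 CPM in the NB colon and salivary gland. *MZB1*, an endoplasmic reticulum chaperone of antibody secretion, was at 654, 1650, 355, and 711 CPM in AD and at 262 and 32.8 CPM in NB, and at 2590 CPM in the NB cecum. With all 8 libraries, 0 of 14 tested genes of the list separated the stages and the median log2 ratio was 0.15. Without the NB cecum and NB liver, 2 of 13 did, *JCHAIN* and *SLAMF7*, and the median was 1.58. Over all genes, 0.104% were separated upward in AD with 8 libraries and 0.561% without these 2. *SDC1* (CD138, a plasma cell marker) stayed below the level for testing, with 4.92 to 18.7 CPM in AD and 0.304 and 0 CPM in the NB colon and salivary gland.

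Per cell, UMIs of 2 or more of 6 plasma cell genes (*JCHAIN*, *MZB1*, *SDC1*, *PRDM1*, *TNFRSF17*, and *DERL3*) were seen in 29.0% (25.5 to 32.7), 36.2% (30.6 to 42.1), 19.6% (16 to 23.6), and 20.6% (15.3 to 26.8) of B cells in the AD duodenum, jejunum, cecum, and colon. The share was 14.2% (12.01 to 16.7) in the NB colon and 1.36% (0.502 to 2.94) in the NB salivary gland. *CD3E* barcodes gave 0.971% to 6.31% in AD and 0 of 554 in the NB colon, which allows a share of up to 0.664% by the interval. In the NB cecum, 17 of 39 cells (43.6%) passed, and *CCR10*, a receptor of antibody-secreting cells of mucosa, was at 162 CPM there against 20.8 to 64.3 CPM in AD and 19.8 CPM in the NB colon.

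Homing receptors were highest in the NB salivary gland for *CCR7* and *CXCR4*. *CCR7* was at 17.0, 11.4, 35.6, and 21.7 CPM in the AD duodenum, jejunum, cecum, and colon and at 112 and 356 CPM in the NB colon and salivary gland. Of 12 tested homing genes, it was the only 1 that separated the stages without the NB cecum and NB liver, against 0.457% of all genes upward in NB. In those 2 libraries it was at 46.7 and 35.8 CPM, and the separation is lost with them. *CXCR4*, the receptor that holds lymphocytes in lymphoid tissue and bone marrow, was at 322, 87.1, 583, and 266 CPM in AD and at 886 and 3300 CPM in the NB colon and salivary gland. Both NB libraries lay above every AD library. Thinned, a *CCR7* UMI was seen in 28.9% (24.7 to 33.3) of B cells of the NB salivary gland, 12.3% (10.2 to 14.7) of those of the NB colon, and 2.33% to 4.78% of those in AD. T cells use *CCR7* as well, and 37.8% of *CD3E* barcodes of the NB salivary gland, 7.22% of those of the NB colon, and 0.356% to 2.61% of those in AD had a UMI. The *CD3E* barcodes exceeded the B cells in the NB salivary gland. How much of the B cell value is free RNA of T cells was not tested. *CXCR5*, which guides B cells into follicles, was at 65.6, 24.9, 93.1, and 106 CPM in AD and at 72.3 and 150 CPM in the NB colon and salivary gland, and the stages overlapped.

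*CCR9*, the receptor for the chemokine of small intestinal epithelium, was higher in B cells of the AD small intestine than in those of the AD large intestine. It was at 69.1 CPM (61.5 to 77.3) in the AD duodenum and 137 CPM (123 to 153) in the AD jejunum, against 1.89 CPM (0.614 to 4.41) in the AD cecum and 3.0 CPM (0.816 to 7.67) in the AD colon. The lowest small intestinal library was 6.09 times the highest large intestinal one on CPM + 10. The 4 NB libraries had 0.609 to 3.34 CPM, but none of them came from the small intestine, where the NB duodenum and jejunum held 1 B cell each. Of 4716 genes tested between both parts of the AD intestine, 4 were higher in the small intestine (0.0848%) and 0 in the large intestine (0.0%), and *CCR9* was the only 1 of the 4 with a symbol. *ENSBTAG00000003408*, which the files do not pair with a symbol, was at 4160 and 6140 CPM in the AD duodenum and jejunum and at 49.9 and 45.7 CPM in the AD cecum and colon. In *CD3E* barcodes, *CCR9* was at 329, 103, 12.7, and 6.56 CPM in the AD duodenum, jejunum, cecum, and colon. It was thus higher in the small than in the large intestine there too. Inside the small intestine the order was opposite to that of the B cells, and in the large intestine the B cell levels rest on 5 and 4 UMIs with overlapping intervals. In barcodes with *EPCAM* or *COL1A2* and without *PTPRC*, *CCR9* was at 0 CPM in the duodenum (32 barcodes with 186464 UMIs) and at 1.70 CPM in the jejunum, below the level in B cells. How much of the *CCR9* level in B cells is RNA of T cells was not tested.

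With all 8 libraries, 5 genes were separated upward in AD, of which 2 have a symbol. *ZBTB38*, a zinc finger gene that binds methylated DNA, was at 149, 108, 117, and 147 CPM in the AD duodenum, jejunum, cecum, and colon. In the NB colon, salivary gland, cecum, and liver it was at 35.0, 33.6, 25.0, and 25.9 CPM, and the lowest AD library was 2.63 times the highest NB library on CPM + 10. The same order was found in *CD3E* barcodes, with 115 to 164 CPM in AD and 19.7 to 27.2 CPM in NB. *RPS16*, a ribosomal protein gene of a family with many near-identical copies, was at 2010, 1340, 1580, and 1970 CPM in AD and at 361 to 634 CPM in NB. It may share reads with copies, which was not tested, so its level is uncertain. The other 3 carry no symbol, and *ENSBTAG00000040367* was at 704 to 884 CPM in AD against 0 to 1.67 CPM in NB. It was likewise at 530 to 634 CPM in AD and 0.636 to 1.45 CPM in NB in *CD3E* barcodes. *ENSBTAG00000047700* was at 27300 to 118000 CPM in the AD B cells and 5.68 to 510 CPM in NB, and at 2390 to 10400 CPM in *CD3E* barcodes in AD. Of the 5 genes, 3 were also separated in *CD3E* barcodes, in which 32 of 5072 genes were separated upward in AD.

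Without the NB cecum and NB liver, *BHLHE41*, a transcription factor known from self-renewing B cells and a member of the list of fetal lymphoid genes, joined the genes higher in AD. It was at 53.2, 98.9, 94.2, and 112 CPM in the AD duodenum, jejunum, cecum, and colon and at 8.37 and 6.55 CPM in the NB colon and salivary gland, and the NB cecum and NB liver had 21.7 and 3.98 CPM. All 4 AD libraries lay above all 4 NB libraries, and the ratio, 2.00 after rounding, fell just short of the rule with 8 libraries and was 3.44 without these 2. In *CD3E* barcodes it was at 2.67 to 11.4 CPM in AD and 0.954 to 6.35 CPM in NB. *MGLL*, a lipase, was at 46.4, 39.8, 42.4, and 44.2 CPM in AD and at 8.67 and 4.8 CPM in the NB colon and salivary gland. *EDEM3*, which acts on misfolded glycoproteins in the endoplasmic reticulum, was at 150, 203, 61.3, and 115 CPM in AD and at 15.2 and 7.86 CPM in these NB libraries. *RUNX2*, a transcription factor, was at 26.9 to 50.2 CPM in AD and at 4.11 and 0 CPM in the NB colon and salivary gland, and was higher in the *CD3E* barcodes of each AD library, at 53.7 to 93.5 CPM. *GCNT1*, an enzyme that branches O-glycans, and *GYG1*, the primer of glycogen synthesis, were at 26.1 to 38.3 CPM and 60.8 to 94.2 CPM in AD and at 3.96 to 5.68 CPM and 19.7 to 21.3 CPM in the NB colon and salivary gland. Of these 27 genes, 10 were also separated in *CD3E* barcodes, in which 74 of 5061 genes were separated upward in AD. Of the 22 genes higher in NB in these 6 libraries, 6 were, against 39 of 5061.

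With all 8 libraries, the 12 genes higher in NB included *CDKN1A*, *ID2*, *HES1*, and 2 of the 15 tested immediate early and heat shock genes (*DUSP1* and *NR4A1*). *CDKN1A*, the cell cycle inhibitor p21, was at 4.59, 7.44, 7.19, and 6.74 CPM in the AD duodenum, jejunum, cecum, and colon and at 87.6, 135, 249, and 93.5 CPM in the NB colon, salivary gland, cecum, and liver. The lowest NB library was 5.60 times the highest AD library on CPM + 10. *DUSP2*, a phosphatase that switches off MAP kinases, was at 8.03, 15.7, 18.2, and 11.2 CPM in AD and at 124, 139, 367, and 235 CPM in NB, a ratio of 4.74. *DUSP1*, of the same family, was at 49.1, 73.1, 66.2, and 123 CPM in AD and at 558, 428, 572, and 629 CPM in NB. *NR4A1* and *NR4A2*, nuclear receptors induced by antigen receptor signals, were at 14.4 to 34.4 CPM and 3.94 to 24.0 CPM in AD and at 121 to 297 CPM and 59.7 to 401 CPM in NB. The stages did not overlap for any of these genes. *ID2*, an inhibitor of E proteins, was at 39.7, 43.7, 49.9, and 44.2 CPM in AD and at 199, 225, 660, and 897 CPM in NB. *HES1*, a target of Notch, was at 4.13 to 9.83 CPM in AD and at 37.8 to 112 CPM in NB. *SERTAD1* and *GADD45B*, a cell cycle regulator and a stress gene, were at 18.5 to 33.7 CPM and 26.7 to 71.9 CPM in AD and at 119 to 198 CPM and 185 to 405 CPM in NB. Genes of other cells moved with these, although none separated the stages, with a median log2 ratio of AD over NB of -4.23 over 4 tested stromal genes (-4.98 without the NB cecum and NB liver) and of -0.97 over 6 tested myeloid genes (1.77 over 3 without them). The stromal list summed to 9.19 to 90.6 CPM in AD and to 83.8, 3120, 580, and 83.6 CPM in the NB colon, salivary gland, cecum, and liver, so the NB colon and liver lay within the AD range. The myeloid list summed to 85.2 to 1360 CPM in AD and to 98.4 to 3730 CPM in NB. Without barcodes holding RNA of 7 markers of other cells, 13 genes were higher in NB in the 7 libraries that kept enough cells, 9 of them among these 12.

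*IGF2BP3*, an RNA-binding protein of fetal tissues, was the only one of the 12 genes (0.248% of 4829 tested) from the list of fetal lymphoid genes. Of the 6 tested genes of that list, 3 had a log2 ratio of AD over NB above 0 and 3 below, with a median of -0.05. Without the NB cecum and NB liver the median was 0.41 over 5 genes, and the 1 that separated the stages was *BHLHE41*, which was higher in AD. *IGF2BP3* was at 9.87, 0.875, 4.92, and 1.50 CPM in the AD duodenum, jejunum, cecum, and colon and at 44.3, 49.8, 46.7, and 79.6 CPM in the NB colon, salivary gland, cecum, and liver. The 4 NB libraries lay above all AD libraries, also in *CD3E* barcodes, with 31.2 to 61.0 CPM in NB and 0.298 to 1.79 CPM in AD. Thinned, a UMI was seen in 4.15% of B cells of the NB colon, 5.91% of those of the NB salivary gland, and 0% to 0.358% of those in AD. *LIN28B*, upstream of the fetal lymphoid programme, was at 0 in all 4 AD libraries and at 1.83 and 5.24 CPM in the NB colon and salivary gland. Of the 12 genes, 4 were also separated in *CD3E* barcodes (*IGF2BP3*, *NR4A1*, *DUSP2*, and 1 gene without a symbol), in which 14 of 5072 genes were separated upward in NB. *CDKN1A* was at 6.0 to 31.2 CPM in the *CD3E* barcodes of AD and at 41.0 and 21.2 CPM in those of the NB colon and salivary gland, and thus overlapped.

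**Figure D4:**
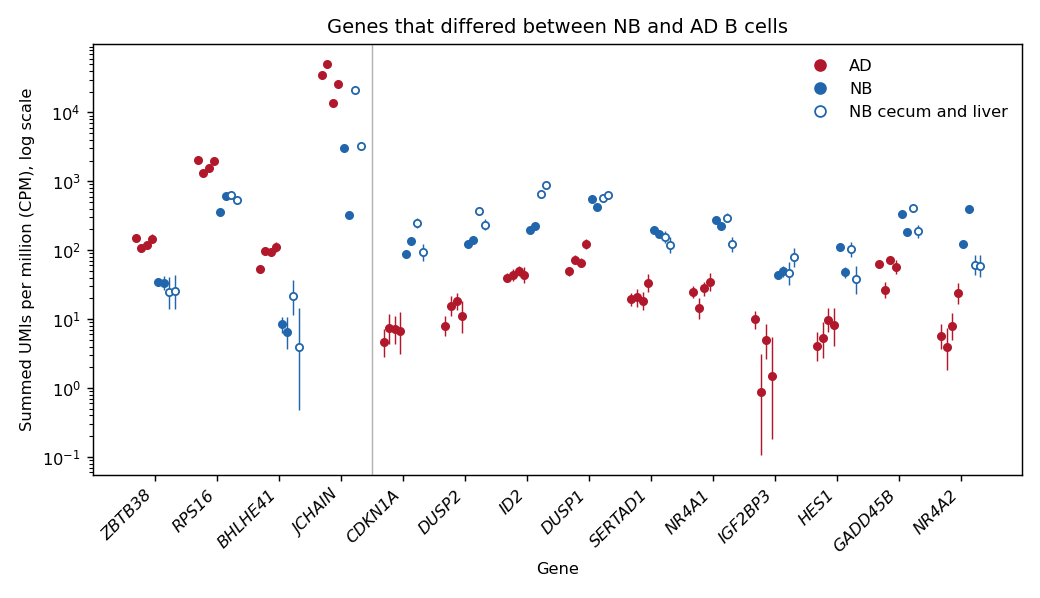
Points give the summed level (CPM, log scale) of 14 genes in the B cells of 8 libraries, with exact Poisson intervals, AD in red and NB in blue, open for the NB cecum and NB liver. The first 4 genes were higher in AD, *JCHAIN* only without the NB cecum, and the 10 genes to the right of the line were higher in every NB library than in every AD library.

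As a list, immediate early and heat shock genes had a median log2 ratio of -1.76 with 8 libraries and -0.92 without the NB cecum and NB liver, and 2 and 3 of 15 tested genes were separated upward in NB, 0 in AD. Over all genes, 0.248% were separated upward in NB with 8 libraries and 0.457% without these 2. *JUNB* was at 113, 142, 158, and 221 CPM in the AD duodenum, jejunum, cecum, and colon and at 652 and 795 CPM in the NB colon and salivary gland. *FOS*, its partner, was at 66.3, 33.2, 101, and 241 CPM in AD and at 484 and 459 CPM in these 2 NB libraries. *HSPA1A*, a heat shock chaperone, was at 1110, 667, 947, and 2320 CPM in AD and at 2130, 22.3, 13600, and 1320 CPM in the NB colon, salivary gland, cecum, and liver, so it did not follow stage. The AD colon was the highest AD library for *FOS*, *JUNB*, and *HSPA1A*, and it shared its dissociation kit with the AD jejunum, which had the lowest *FOS* and *HSPA1A*. Such genes can be induced during dissociation, which differed between stages. The summed level of the list was 6110 to 16600 CPM in the *CD3E* barcodes of AD and 5980 to 30800 CPM in those of NB, and the part of dissociation was not tested.

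Genes of the naive and memory list were split in direction. Of 11 tested, 8 had a log2 ratio of AD over NB above 0 and 3 below, with a median of 0.43, and 0 separated the stages. Without the NB cecum and NB liver, the median was 0.15 and 1 of 11 separated the stages, upward in NB. Over all genes in these libraries, 0.561% were separated upward in AD and 0.457% in NB. *CD24*, a surface glycoprotein of immature and naive B cells, was at 21.1, 5.25, 22.7, and 7.49 CPM in the AD duodenum, jejunum, cecum, and colon and at 118 and 152 CPM in the NB colon and salivary gland. It separated these libraries with a ratio of 3.91, but the NB cecum and liver had 10.0 and 19.9 CPM, so it did not separate all 8. *CD24* is also expressed by epithelium, and the epithelial list summed to 10.1 to 47.3 CPM in the AD B cells and to 106 and 6.11 CPM in those of the NB colon and salivary gland. *CD27*, a marker of memory B cells and plasma cells in other species, was at 139, 177, 80.2, and 129 CPM in AD and at 59.0 and 21.4 CPM in the NB colon and salivary gland. *TNFRSF13B* (TACI), a receptor for survival factors, was at 51.4, 91.0, 55.2, and 54.7 CPM in AD and at 22.2 and 6.11 CPM in these NB libraries. Both genes were higher in every AD library than in both NB libraries without reaching the 2-fold separation. *TNFRSF13C*, the BAFF receptor of naive B cells, was at 158, 142, 266, and 187 CPM in AD and at 229 and 436 CPM in the NB colon and salivary gland, and the stages overlapped. *FCRL4*, a receptor of tissue memory B cells, was at 43.8, 71.9, and 42.7 CPM in the AD duodenum, cecum, and colon and at 1.31 CPM in the AD jejunum, with 24.9 and 10.9 CPM in the NB colon and salivary gland.

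Of 9 tested class II antigen presentation genes, 0 separated the stages, and the medians were -0.24 and -0.09. Over all 4829 genes, 0.104% were separated upward in AD and 0.248% in NB. A count of 0 therefore does not set this list, or the others of this paragraph, apart from other genes. *CD74*, the invariant chain, was at 5610, 6170, 6550, and 6260 CPM in the AD duodenum, jejunum, cecum, and colon and at 2890 and 4450 CPM in the NB colon and salivary gland. These libraries did not overlap for *CD74*, but fell short of the 2-fold separation. *BOLA-DRA*, the chain it guides, was at 2370 to 3380 CPM in AD and at 2460 and 4120 CPM in the same NB libraries, and overlapped. None of the 12 tested genes of costimulation and activation separated the stages with 8 libraries, and 1 of 11 did without the NB cecum and NB liver. This was *CD83*, an activation marker, was at 131, 89.7, 155, and 135 CPM in AD and at 408 and 656 CPM in the NB colon and salivary gland. *NFKBID*, an atypical inhibitor of NF-kB that belongs to no list and is among the 10 highest-ranked genes, was at 12.7 to 33.7 CPM in AD and at 216 and 189 CPM in the NB colon and salivary gland, with a ratio of 4.55. *RASGEF1B*, an exchange factor, was at 5.69 to 19.3 CPM in AD and at 92.8 and 79.5 CPM. Of interferon-stimulated genes, 0 of 5 tested separated the stages, and the medians were -0.51 and -0.79. Cytokine and receptor genes (0 of 8) and survival genes (0 of 5) had medians of -0.30 and -0.06. *IL10*, an immunosuppressive cytokine, stayed under the level for testing, at 0.875 to 6.20 CPM in AD and at 41.1 and 34.1 CPM in the NB colon and salivary gland.

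*RAG1* and *DNTT*, genes of B cell precursors, were at or near 0, whereas the summed level of the precursor list was highest in the NB cecum and NB liver. The 12 genes summed to 14.7 to 87.1 CPM in AD, 108 CPM in the NB colon, 71.2 CPM in the NB salivary gland, 472 CPM in the NB cecum, and 302 CPM in the NB liver. Other barcodes of the NB cecum and NB liver held the list at a similar or higher level, with 418 and 697 CPM in *CD3E* barcodes and 640 and 814 CPM in barcodes with *EPCAM* or *COL1A2* and without *PTPRC*. The *CD3E* barcodes of AD had 320 to 1140 CPM. A summed level does not show which genes of the list it comes from, and the *VPREB1* level of these other barcodes is not reported here. *RAG1*, which cuts immunoglobulin genes, had no UMI in AD and 0.152 CPM (1 UMI) in the NB colon, and *DNTT* was found in the AD jejunum at 6.12 CPM and in the NB colon at 5.32 CPM and was 0 in the other 6 libraries. *VPREB1*, part of the surrogate light chain, stands for 2 gene IDs in the files, which may share reads. Under one of them, *VPREB1* was at 3.03 to 12.7 CPM in AD, at 21.8 and 1.31 CPM in the NB colon and salivary gland, and at 120 and 57.7 CPM in the NB cecum and liver, from 72 and 29 UMIs. Under the other, it was at 0 to 25.4 CPM in AD, highest in the jejunum, and at 34.1, 0, 227, and 103 CPM in the NB colon, salivary gland, cecum, and liver. None of the 3 precursor genes tested separated the stages with 8 libraries, and none reached the level for testing without the NB cecum and NB liver. Over all genes with 8 libraries, 0.104% were separated upward in AD and 0.248% in NB.

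The colon is the only tissue in which both stages had B cells that met the label. With 204 AD and 892 NB cells, 233 of 4847 genes were higher in AD (4.81%) and 419 in NB (8.64%) by 2-fold on CPM + 10 with intervals apart. All 12 mitosis genes were higher in the NB colon, with a median log2 ratio of AD over NB of -2.34 against -0.08 over all genes, and so were 13 of 14 DNA replication genes, with a median of -1.84. *UBE2C*, a ubiquitin-conjugating enzyme of mitosis, was at 38.2 CPM in AD and 345 CPM in NB, and *UHRF1*, which carries DNA methylation through replication, was at 27.0 and 235 CPM. Plasma cell genes had the opposite order, with 7 of 14 higher in AD and 0 in NB and a median of 1.02. These were *PRDM1*, *JCHAIN*, *MZB1*, *FKBP11*, *TXNDC5*, *SLAMF7*, and *CREB3L2*. Germinal centre genes were split, with *MEF2B* higher in NB, *LMO2*, a germinal centre transcription cofactor, higher in AD (376 against 154 CPM), and a median of -0.17 over 11 genes. Of homing genes, 3 were higher in NB, among them *CCR7* and *CXCR4*, whereas *ITGB7* and *ITGAL*, integrin chains for gut homing and adhesion, and *GPR183*, a receptor for oxysterols, were higher in AD. *ITGB7* was at 58.4 CPM in AD and 17.0 CPM in NB. *ATF3*, a stress response factor, was at 26.2 and 241 CPM and belonged to the 6 of 16 immediate early genes that were higher in NB, while *FOSB* was higher in AD, at 426 and 149 CPM. Markers of other cells differed as well, with *S100A12*, a neutrophil gene, at 0 in AD and 95.1 CPM in NB, and *HBA*, a globin gene, at 14.2 and 95.1 CPM. Their part in these counts was not tested.

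**Figure D5:**
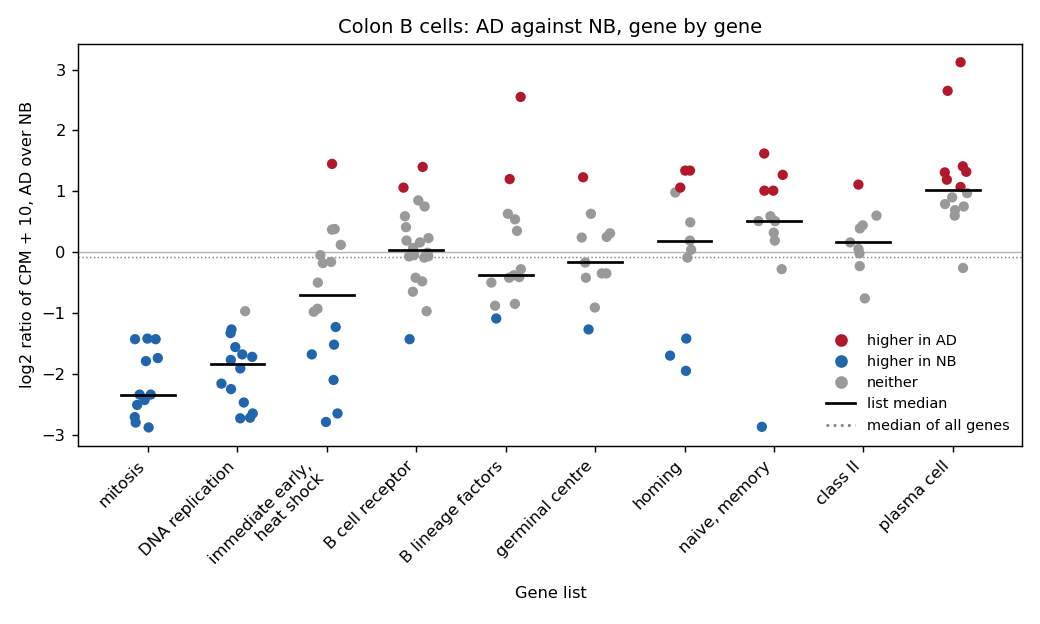
Each point is 1 gene of a list, placed by its log2 ratio of CPM + 10 in colon B cells, AD (204 cells) over NB (892 cells), and colored where it was 2-fold apart with intervals apart, and bars are list medians. All 12 mitosis genes lie below 0 with a median of -2.34, and the plasma cell genes have a median of 1.02.

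In the cecum, 439 AD cells stood against 39 NB cells for which the label was uncertain, and 744 of 4710 genes were higher in AD (15.8%) and 571 in NB (12.1%). Receptor genes (13 of 20), lineage factors (9 of 12), and germinal centre genes (10 of 10) were higher in AD, whereas plasma cell genes (8 of 15), precursor genes (4 of 4, with a median of -2.78), and immediate early genes (14 of 15) were higher in the NB cells. Stromal genes moved with the latter, with all 5 tested genes higher in NB, among them *COL3A1*, a fibrillar collagen, at 255 CPM against 0.378 CPM in AD. The values describe these 39 cells by the rule, and whether they are B cells was not settled by their markers.

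Between the NB libraries in which the label held, genes of division and the germinal centre were higher in the colon and homing genes in the salivary gland. Of 4826 genes, 473 were higher in the colon (9.80%) and 272 in the salivary gland (5.64%). All 11 mitosis genes and all 13 DNA replication genes tested were higher in the colon, with medians of 3.58 and 2.29 on the log2 scale against 0.09 over all genes. Of 11 germinal centre genes, 8 were higher in the colon (*MEF2B*, *S1PR2*, *RGS13*, *ELL3*, *MYBL1*, *FAS*, *AFF2*, and *NUGGC*), and *CD38* was higher in the salivary gland, at 160 against 35.9 CPM. Of 12 plasma cell genes, 7 were higher in the colon, and *IRF4*, a factor that both activated and plasma cells use, was higher in the salivary gland (149 against 68.6 CPM). Of 11 homing genes, 5 were higher in the salivary gland (among them *CCR7*, *CXCR4*, *S1PR1*, and *GPR183*) and 0 in the colon. *S1PR1*, the receptor by which lymphocytes leave tissue, was at 52.4 CPM in the salivary gland and 9.43 CPM in the colon. The homing list summed to 4610 CPM in the B cells of the salivary gland and 1440 CPM in those of the colon, and to 3890 and 1530 CPM in the *CD3E* barcodes of these libraries, so T cells had the same direction. *MYC*, a growth factor-induced transcription factor, was at 424 and 65.1 CPM, although mitotic cells were rare in the salivary gland. Interferon-stimulated genes were higher there in 4 of 7 (among them *IFI6*, *MX1*, and *MX2*). *IFI6* was at 308 CPM against 49.1 CPM in the colon. The interferon list summed to 833 CPM in the salivary gland B cells and 246 CPM in those of the colon. It summed to 659 and 295 CPM in *CD3E* barcodes and to 4800 and 138 CPM in barcodes with *EPCAM* or *COL1A2* and without *PTPRC*. Collagen RNA was also higher in these cells, with *COL1A1* at 918 CPM against 3.04 CPM, and the stromal list summed to 3120 CPM in the NB salivary gland, 83.8 CPM in the NB colon, and 9.19 to 90.6 CPM in AD. *COL1A1* was seen in 4.55% of the thinned salivary gland B cells and reached 24800 CPM in the barcodes with *EPCAM* or *COL1A2* and without *PTPRC* of that library. The part of other cells' RNA in these differences was not tested.

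The same rule found 3579 cells in the NB ileum. Of the ileal cells, 39.7% (38.1 to 41.3) were mitotic, 38.3% (36.7 to 39.9) had 2 or more germinal centre genes, and 68.3% had 2 or more further B cell genes. In the NB colon, each of these shares was lower, with intervals apart. There, 62.9% (59.6 to 66.1) of cells had 2 or more further B cell genes, and the interval of the ileum was 66.7 to 69.8. In the AD duodenum, 34.3% of cells had 2 or more germinal centre genes and 68.7% had 2 or more further B cell genes, with intervals that overlap those of the ileum. *RGS13* was at 300 CPM in the ileum against 169 CPM in the NB colon, 328 CPM in the AD duodenum, and 293 CPM in the AD cecum. *CD24* was at 250 CPM in the ileum, 152 CPM in the NB salivary gland, 118 CPM in the NB colon, and 5.25 to 22.7 CPM in AD. The ileum was nearest to the NB colon in mitotic share, to the NB salivary gland in *CD24*, and to the AD cecum in *RGS13*.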

How the data were processed

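Single-cell RNA libraries were made with 10x Genomics 3' chemistry, 1 for each of 11 NB and 4 AD tissues. The deposited matrices hold raw UMI counts per gene and barcode, which the authors made with Cell Ranger 3.1.0 on the ARS-UCD1.2 assembly, and no normalization was applied to these counts. The matrices hold 27270 genes, of which 7540 have no symbol, and 0 columns of other samples were left unused.

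B cells were chosen by the rule given at the start of the results, and the members and gene lists were chosen with earlier results of these data known. UMIs were summed over the B cells of each library and scaled to CPM with exact Poisson intervals, and shares have exact Clopper-Pearson intervals, both at 95%. Cells were thinned to 1000 UMIs for shares of cells with a gene, and shallower cells were left out. A gene was tested with a mean of 20 CPM or more over the libraries compared. With 1 library per tissue and stage, no replicate test exists and no p-value is given. A gene separated the stages if the lowest library of one stage was at least 2-fold above the highest of the other on CPM + 10, and 2 single libraries were compared by a 2-fold difference on CPM + 10 and intervals apart. Log2 ratios are on CPM + 10, which understates the change of low genes. The calling of genes between stages was also run on simulated counts with known changes and counting error only, and the outcome is not reported here.

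Named genes are members of 21 fixed lists (287 genes, 10 of them not among the symbols) with 20 CPM or more in any library or defining markers at 0, the 10 leading genes with a symbol in each direction with all 8 libraries and with 6, and the leading genes between both parts of the AD intestine. Doublets were kept. In an alternative, the highest doublet scores (Scrublet method, 2 simulated doublets per barcode, 2000 variable genes, 30 principal components) were removed at 0.8% per 1000 cells. Other alternatives changed the marker rule, a mitochondrial limit of 40%, the scaling, the pseudocount, the filter, and the libraries. Python 3.11.15, NumPy 2.4.6, SciPy 1.17.1, pandas 2.3.3, scikit-learn 1.9.0, and matplotlib 3.10.9 were used, and R 4.3.3 with edgeR 4.0.16 for TMM scaling factors only. One UMI was worth 0.152 to 1.99 CPM in the 8 libraries, so that low genes of the NB cecum and NB liver are the least precise. Some genes of the lists are not reported here.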

Additional observations from a re-analysis of the deposited data

Results flagged for a closer look

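By the same marker rule, the NB ileum, which is outside the comparisons, had a B cell share of 66.47% of *PTPRC* barcodes, above all 14 other libraries. The NB rectum, with too few B cells to be compared, had a share of 0.5124% (12 of 2342), above the 0.07424% of its *CD3E* barcodes that had both markers, although the intervals overlapped (0.265 to 0.893 and 0.00188 to 0.413). Of the 18 rectum cells found by the rule, 3 had 2 or more further B cell genes after thinning (16.7%, 3.58 to 41.4). This was near the shares of the NB cecum and NB liver, for which the label was uncertain.

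For 3 lists, the median stage difference lay more than 0.5 on the log2 scale from 0 in the cecum and in the colon, on opposite sides. For the plasma cell programme, the median log2 ratio of AD over NB was -1.15 in the cecum and 1.02 in the colon. For DNA replication genes it was 0.78 and -1.84, and for interferon-stimulated genes -0.97 and 0.59. Other lists also had opposite signs, with a median within 0.5 of 0 in at least 1 of the tissues, at 2.28 in the cecum and -0.17 in the colon for germinal centre genes, 1.47 and -0.38 for lineage factors, -0.86 and 0.08 for costimulation, -0.33 and 0.16 for class II, -0.08 and 0.19 for homing, and -0.02 and 0.34 for survival genes. The differences between the tissues were not tested, and the NB cecum has only 39 cells, few of which held further B cell genes.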

How the results depend on the processing

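The list medians for receptor genes, lineage factors, plasma cells, class II, costimulation, survival, and fetal genes changed sign under at least 1 alternative. Those for mitosis, DNA replication, immediate early, germinal centre, interferon-stimulated, cytokine, precursor, and naive and memory genes kept theirs under all that were run. The 5 genes higher in AD became 28 with at least 2 UMIs of each marker, 25 without barcodes holding RNA of 7 markers of other cells, 9 without the condition on *CD3E*, 3 with a pseudocount of 50 CPM, 3 with a mean of at least 100 CPM, 16 in libraries with 50 or more B cells, 27 in the 4 shared gut tissues only, 9 after thinning, and 27 without the NB cecum and NB liver. Some of these settings also changed the libraries. With 2 UMIs of each marker, the NB cecum (11 cells) and NB liver (13 cells) fell below 20 cells and dropped out. Without RNA of other cells, the NB cecum (17 cells) dropped out, as it did under the limit of 50. The 4 shared tissues left only the NB cecum and NB colon on the NB side. The 12 genes higher in NB became 19 and 6 with pseudocounts of 1 and 50 CPM, 5 with a mean of at least 100 CPM, 48 in the 4 tissues only, and 22 without the NB cecum and NB liver. Leaving out 1 library at a time gave 6 to 16 genes higher in AD (16 without the NB cecum, 13 without the AD jejunum, 13 without the NB salivary gland, 12 without the NB colon, and 8 without the NB liver) and 12 to 29 higher in NB (29 without the NB salivary gland, 20 without the NB liver).

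List medians moved as follows. With 2 UMIs of each marker (NB cecum and NB liver dropped), they were 0.0 for homing, 0.15 for class II, 0.09 for costimulation, -0.67 for immediate early, and 0.72 for fetal genes. Without RNA of other cells (NB cecum dropped), they were -0.2 for lineage factors, 1.56 for plasma cells, 0.0 for homing, 0.0 for costimulation, and -0.71 for immediate early genes. The fetal list was at 0.35 without the *CD3E* condition and 0.36 in the 4 tissues, and precursor genes were at -0.41 without a filter. With a mean of 100 CPM, medians were -0.8 for homing, 0.01 for naive and memory, -1.21 for costimulation, and -0.46 for fetal genes. In libraries with 50 or more B cells, costimulation was at 0.09 and immediate early genes at -0.78. Thinning gave -0.68 for homing, 0.11 for class II, and 0.26 for survival genes. Without the NB cecum and NB liver, medians were -0.23 for lineage factors, 1.58 for plasma cells, 0.15 for naive and memory, -0.06 for costimulation, -0.92 for immediate early, and 0.41 for fetal genes. Leaving out 1 library gave -0.58 to 0.09 for costimulation, -2.02 to -0.78 for immediate early, and -0.59 to -0.23 for homing genes.

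The median AD share of 3.11% became 2.35% with 2 UMIs of each marker, 2.51% without RNA of other cells, 4.03% without the *CD3E* condition, 3.53% of all barcodes, and 0.784% with thinning before the marker rule. Under that thinning, 47 of 611 *PTPRC* barcodes of the NB colon (7.69%) and 47 of 1008 of the NB salivary gland (4.66%) were B cells. The median NB share of 0.287% became 0.106% with 2 UMIs of each marker, 0.0635% without RNA of other cells, 0.345% without the *CD3E* condition, 0.124% of all barcodes, 0% with thinning before the marker rule, and 0.431% over the libraries with 100 or more *PTPRC* barcodes, an alternative chosen after seeing the data. The mitotic share of AD B cells became 11.7% without thinning, 7.12% with 2 UMIs, and 4.46% without RNA of other cells, and that of NB became 26.8% without thinning and 21.6% with 2 UMIs. In the colon, the 233 genes higher in AD became 378 and 63 with pseudocounts of 1 and 50 CPM and 64 with a mean of 100 CPM, and the 419 higher in NB became 166 and 134 under the latter. TMM scaling moved the split of calls between stages from 29.4% to 37.5% in AD. The causes were not tested. Removing doublets or limiting mitochondrial UMIs left every one of these values within 1.5 times or within its interval.

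No paired analysis was possible because the labels carry no replicate numbers. The 4 tissues present at both stages have 1 library per stage and come from 1 cow in AD. Only the cecum and colon were set side by side, without a test, because the NB duodenum and jejunum held 1 B cell each. Counting error is largest in the NB cecum and NB liver, where 1 UMI is worth 1.67 and 1.99 CPM.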
